A study of Mus musculus with 4 samples.

Results

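The genes examined were Tcf12, Tcf3 and Tcf4, which encode the E proteins, and Id1, Id2 and Id3, which encode their inhibitors. These 6 genes were taken as a family and found by symbol among the 21887 protein-coding genes of mouse chromosomes 1 to 19, X and Y in the RefSeq annotation of GRCm38. Every summit inside one of them or within 20 kb was listed, where a summit is the base of highest read pile-up in a called peak. The samples were thymus of mice at 4 weeks of age that were homozygous for the germline p53 AD allele (p53 AD/AD), whose p53 protein is dimeric. Chromatin immunoprecipitation followed by sequencing gave 2 libraries for p53 and 1 for PPAR-alpha, a lipid-sensing nuclear receptor, beside 1 input library that is not analysed here. All libraries carry the same genotype, so nothing below compares dimeric with wild-type p53. The labels do not say whether the p53 libraries came from separate mice, and differences between them are the spread of 2 libraries that may be technical copies. PPAR-alpha had no replicate and was read at 75 nt against 50 nt for p53, so antibody and read length cannot be told apart.

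E proteins are basic helix-loop-helix transcription factors that bind DNA as dimers at short motifs called E-boxes. Id proteins dimerise with them but lack the basic region that contacts DNA, and so keep them from binding. In the thymus, HEB (from Tcf12) and E2A (from Tcf3) drive rearrangement and expression of antigen receptor genes in early thymocytes, and signals from the pre-T cell receptor raise Id3, which lowers E protein activity.

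There were 3608 and 4767 summits in the lists of p53 replicates 1 and 2 and 4070 in that of PPAR-alpha. Where values are given for the 3 lists in a row, they follow this order. The number of sequenced reads is not given in the sources used here, so the depth is unknown and a gene without a summit is one where none was called. Each summit carries the authors' score, which has the form of a −log10 p- or q-value. Ranks and shares by score were taken within each list. The exceptions are cuts at a score of 5 or 10, applied alike to all lists, and an order by the lower of both p53 scores. A further exception is the choice of which related genes to name, by their highest score in any list. The lists may differ in scale, so those exceptions are rough. At genes that define thymocytes, 8, 9 and 8 of 10 had a summit inside or within 5 kb in the 3 lists, beside 14.6%, 18.3% and 14.3% of all protein-coding genes. Of 20 genes that define adipocytes, epithelium of the thymus, myeloid cells or B cells, each list had a summit at 2, and no gene had one in all 3 lists. Summits do not measure expression, and these counts describe the chromatin sampled only in that sense.

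The 6 genes held 15 summits, and they were unevenly spread. Tcf12 had 9, Tcf3 had 3 and Id3 had 3, while Tcf4, Id1 and Id2 had none in any library. By library the 6 genes held 5 summits in p53 replicate 1, at Tcf12 and Tcf3, 7 in p53 replicate 2, at Tcf12 and Id3, and 3 in PPAR-alpha, 1 each at Tcf12, Tcf3 and Id3. Of all protein-coding genes, 20.8% had a summit of p53 replicate 1 inside or within 20 kb, 25.7% one of p53 replicate 2 and 20.4% one of PPAR-alpha. With 2, 2 and 3 of 6 genes, the family's counts are too small to set apart from that background. Any library marked 36.0% of all genes and 3 of these 6. Tcf12 was the 1 gene of 6 with a summit in each of the 3 lists, which 9.88% of all genes had. Of the 15 summits, 11 scored under 5 and 2 scored 10 or more, both at the start of Tcf12.

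Several sequences show what lies beside the summits. The 250 bases before a start site annotated by RefSeq (GRCm38.p6) are printed 5′ to 3′ along the gene's own strand, in lower case, with E-boxes (CANNTG, which reads the same on both strands) in capitals. Tcf12 has a pair of start sites near its upstream end. The run before the outer one (chr9:72111820-72112069, minus strand) held a p53 replicate 1 summit at its base 43. The run before the inner one (chr9:72111202-72111451, minus strand) precedes the start that the p53 summits of replicates 2 and 1 follow by 179 and 185 bp. Id3 (chr4:136143572-136143821, plus strand) had summits of p53 replicate 2 and PPAR-alpha just past its start, and Id2 (chr12:25096093-25096342, minus strand), shown for contrast, had none in any library.
Tcf12 outer start: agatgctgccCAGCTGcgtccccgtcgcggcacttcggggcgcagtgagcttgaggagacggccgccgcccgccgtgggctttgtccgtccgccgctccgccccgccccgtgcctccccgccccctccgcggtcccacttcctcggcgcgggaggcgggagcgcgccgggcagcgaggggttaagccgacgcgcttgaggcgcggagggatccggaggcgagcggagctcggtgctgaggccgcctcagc
Tcf12 inner start: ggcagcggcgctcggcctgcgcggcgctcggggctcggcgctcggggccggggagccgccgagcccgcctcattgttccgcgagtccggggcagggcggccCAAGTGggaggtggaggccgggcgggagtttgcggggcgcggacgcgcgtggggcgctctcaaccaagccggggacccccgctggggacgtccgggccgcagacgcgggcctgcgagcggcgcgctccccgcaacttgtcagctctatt
Id3: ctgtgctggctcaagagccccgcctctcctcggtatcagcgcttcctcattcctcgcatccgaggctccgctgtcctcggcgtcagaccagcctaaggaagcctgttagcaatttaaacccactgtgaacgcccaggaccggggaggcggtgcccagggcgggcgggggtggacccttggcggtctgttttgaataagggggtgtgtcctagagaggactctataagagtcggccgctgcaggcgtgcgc
Id2: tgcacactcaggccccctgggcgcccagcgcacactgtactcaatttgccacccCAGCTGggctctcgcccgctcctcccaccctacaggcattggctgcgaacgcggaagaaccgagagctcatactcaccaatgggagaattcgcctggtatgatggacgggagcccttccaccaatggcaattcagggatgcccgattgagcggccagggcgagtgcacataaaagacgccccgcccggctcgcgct

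Each of the Tcf12 runs held 1 E-box, CAGCTG at base 11 of the outer and CAAGTG at base 102 of the inner. The Id2 run held 1, CAGCTG at base 55, and the Id3 run held none. Among the 250 bases before 32817 annotated starts, 66.2% held a CANNTG, 13% a CAGCTG and 17.2% a CACCTG on either strand, so an E-box in such a window is common. None of the 6 windows found for these genes, which were 3 for Tcf12 and 1 each for Tcf3, Id2 and Id3, held a CACCTG. None held a p53 half-site, a motif present in 7.12% of all windows, or a DR1 element with up to 2 mismatches, present in 3.23%. DR1 is the PPAR motif, a pair of AGGTCA copies with 1 base between them, searched on both strands. The summits at the inner Tcf12 start, at Tcf3 and at Id3 lay outside these windows, so the windows say nothing about the bases under them.

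Tcf12 (chromosome 9, 71844252 to 72111893, minus strand) carried the strongest p53 signal of the family. It encodes HEB, an E protein required for normal T cell development. The summit just inside the inner start scored 13.6 in p53 replicate 1, at position 72111016, and 15.3 in p53 replicate 2, at position 72111022. The replicates placed it 6 bp apart, 185 and 179 bp downstream of that start. It ranked 104 of 3608 and 99 of 4767, so 3.16% and 2.27% of the summits of those lists scored as high or higher. The nearest PPAR-alpha summit lay 13.8 kb away. Of all p53 replicate 1 summits, 750 (20.8%) had a replicate 2 summit within 100 bp, and 87 of these scored 10 or more in both libraries. Ordered by the lower of both scores, the Tcf12 summit stood at place 65 of 750. Of the 750, 56.8% had PPAR-alpha within 500 bp, and of the 87, 77.0% did. The Tcf12 summit belonged to the 324 with none that near, where it stood at place 13. Several of those placed above it lay close together on chromosome 9, between positions 3000422 and 3038022 of p53 replicate 1. The highest scored 903.9 and 902.9 in p53 replicates 1 and 2. Some of those above it lay in dense runs of summits, and some had PPAR-alpha just past 500 bp, the nearest at 565 bp. Dense runs were not left out of these places and shares. Whether p53 and PPAR-alpha differ at this site was not tested, since PPAR-alpha has 1 library.

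A second Tcf12 site lay inside the gene, about 14 kb past the inner start, and all 3 libraries had a summit there. It scored 3.99 in p53 replicate 1 (position 72097122), 2.97 in p53 replicate 2 (72097023) and 5.91 in PPAR-alpha (72097236). The p53 summits were 99 bp apart, and the PPAR-alpha summit lay 114 bp from replicate 1 and 213 bp from replicate 2. All 3 therefore met within 500 bp, but only the p53 summits within 100 bp. Within their lists these were ordinary values, since 55.3%, 69.8% and 41.6% of summits scored as high or higher. It was the 1 place at the 6 genes where summits of all 3 libraries met within 500 bp.

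The remaining Tcf12 summits were weak and came from 1 p53 library each. Replicate 1 had one of score 3.99 at 72112027, 208 bp upstream of the outer start and 134 bp beyond the annotated gene. Replicate 2 had summits of 3.62 at 72109787, 2.97 at 72109132 and 2.37 at 72098506, which lay 1414, 2069 and 12695 bp downstream of the inner start. No summit of another list lay within 500 bp of any of these 4. All 9 Tcf12 summits thus fell within 14.9 kb of the upstream end of a gene that spans 267.6 kb, and the other 252.8 kb held none, nor did the third annotated start at 71896096. In the 796 other genes with a span within 1.5 times that of Tcf12, 51.8%, 48.9% and 46.4% of the summits in the 3 lists lay within 15 kb of either end. Those shares take both ends, while the Tcf12 summits were all near the upstream one, so the measures are unlike. The 15 kb limit also lies just past the farthest Tcf12 summit, which fixes the Tcf12 share under it. Of the 797 genes with a span like that of Tcf12, itself included, 18.1%, 22.6% and 20.7% had a summit in these lists, beside 20.8%, 25.7% and 20.4% of all genes. As many summits as at Tcf12, or more, were found at 353 of all genes (1.61%) in p53 replicate 1, where it had 3. In p53 replicate 2, where it had 5, they were found at 103 genes (0.471%). These counts include Tcf12 and were not matched for span, and a long gene has more room for summits. Apart from the start summit, the replicate 2 summits scored only 2.37 to 3.62.

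The 20 kb limit left out a site of all 3 libraries upstream of Tcf12. Summits lay 21.4, 21.5 and 21.3 kb beyond the gene, at 72133266 in p53 replicate 1 (score 13.6), 72133420 in p53 replicate 2 (5.88) and 72133222 in PPAR-alpha (9.995). They fell within 198 bp of each other, outside any annotated gene, and the nearest annotated start was the outer one of Tcf12. The replicate 1 score there equalled that at the inner Tcf12 start, while replicate 2 scored lower there than at the start. The Tcf12 summits nearest inside the limit were those at the start, since nothing was called between.

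**Figure D1:**
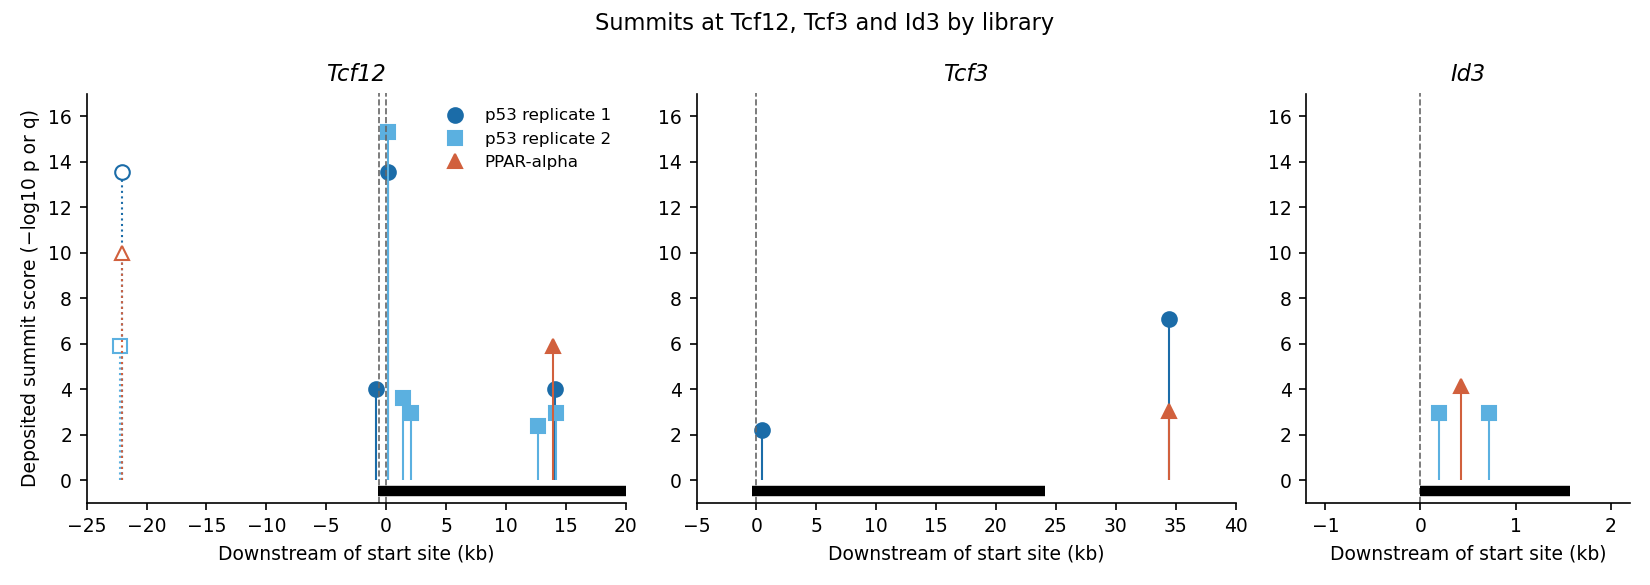
Deposited summit score (−log10 p or q) against distance downstream of an annotated start site in kb, for Tcf12 (the inner start at 0), Tcf3 and Id3. Circles and squares are p53 replicates 1 and 2, triangles are PPAR-alpha, dashed lines are start sites, black bars are the gene and open symbols lie beyond the 20 kb limit. Both p53 libraries have a summit at the inner Tcf12 start, at 13.6 and 15.3, with none of PPAR-alpha beside it, and p53 replicate 1 reaches 13.6 again beyond the limit.

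Tcf3 (chromosome 10, 80409541 to 80433976, minus strand) encodes E2A, the partner of HEB in early thymocytes. Inside the gene it had 1 summit, of p53 replicate 1, at 80433198. It lay 437 bp downstream of the annotated start at 80433635 and 778 bp from the upstream end of the gene. That summit scored 2.18, near the bottom of its list, where 96.9% of summits scored as high or higher. No summit of another list lay near it, the closest being a PPAR-alpha summit 34.0 kb away. The other pair of summits in the Tcf3 window belonged by position to Mbd3, which encodes a subunit of the NuRD chromatin remodelling complex. They lay at 80399176 in p53 replicate 1 (score 7.07) and 80399197 in PPAR-alpha (3.06), 21 bp apart and 10.4 and 10.3 kb from Tcf3. Both were inside Mbd3, 355 and 334 bp downstream of its start. The nearest p53 replicate 2 summit to Tcf3 was 117.0 kb away, inside the ribosomal protein gene Rps15, so neither site was found in both p53 libraries.

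Tcf4 (chromosome 18, 69343429 to 69687967) had the widest empty surroundings of the 6 genes. It encodes the E protein best known for its role in plasmacytoid dendritic cells. The nearest summit was 1543.1 kb away in p53 replicate 1, 858.3 kb in p53 replicate 2 and 842.7 kb in PPAR-alpha. Of all protein-coding genes, 12.2%, 17.5% and 19.1% were as far or farther from a summit of these lists. Genes of a span within 1.5 times that of Tcf4 had no summit in any list in 70.9% of cases. Having none was thus the common state of genes of this length.

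Among the inhibitors, Id3 alone had summits. Id3 (chromosome 4, 136143822 to 136145392, plus strand) is the family member that pre-T cell receptor signals raise. p53 replicate 2 had summits at 136144015 and 136144543, each of score 2.97, which lay 193 and 721 bp downstream of the start. PPAR-alpha had 1 between them, at 136144245 with a score of 4.13, 423 bp downstream of the start and 230 and 298 bp from the p53 summits. None of these met within 100 bp. The scores were low in both lists, where 69.8% and 66.3% of summits scored as high or higher. p53 replicate 1 had no summit at Id3, and its nearest lay 27.1 kb away inside E2f2. Genes of a span like that of Id3 had a p53 replicate 2 summit in 16.9% of cases and a PPAR-alpha summit in 13.7%.

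Id1 (chromosome 2, 152736251 to 152737410), a gene raised by bone morphogenetic protein signals in many cells, had no summit. The nearest were 57.1 kb away in p53 replicate 1, 52.5 kb in p53 replicate 2 and 503.8 kb in PPAR-alpha, and both p53 summits lay inside Bcl2l1, which encodes the survival protein BCL-XL. Id2 (chromosome 12, 25093799 to 25096092, minus strand) is required for innate lymphoid cells and had none either. Its nearest were 171.8, 385.7 and 171.9 kb away in the 3 lists. For comparison, the median protein-coding gene was 164.4, 114.4 and 158.8 kb from a summit of these lists. No summit in any list was the state of 90.6% of genes with a span like that of Id1 and of 70.1% with a span like that of Id2.

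**Figure D2:**
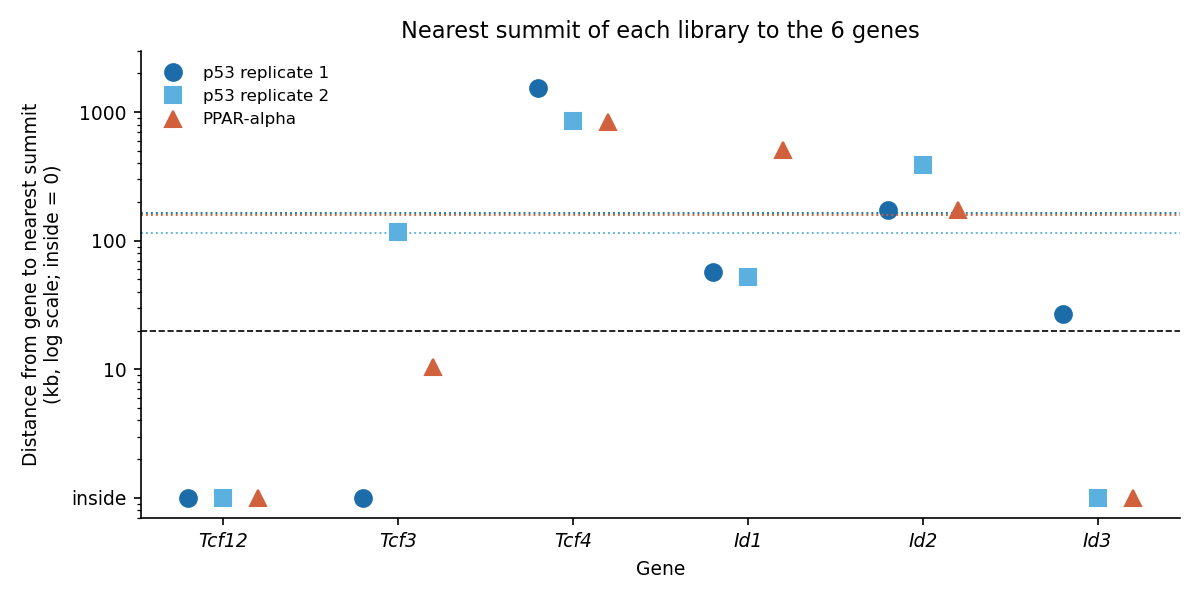
Distance in kb (log axis) from each of the 6 genes to the nearest summit of each library, with genes that hold a summit drawn at the bottom as inside. The dashed line is the 20 kb limit and dotted lines are the medians of all protein-coding genes in each library's colour. Tcf12 held a summit of every library, Tcf4 was 842.7 kb or more from all of them, and libraries differed at Tcf3 and Id3.

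The p53 libraries thus met at 1 gene of the 6. Of the 5 summits of p53 replicate 1, 2 had a replicate 2 summit within 100 bp, both at Tcf12, where 20.8% of the whole list did. Of the same 5, 1 had a PPAR-alpha summit within 100 bp, the one at Mbd3, where 17.4% of the whole list did. With so few summits these shares of replicate 1 cannot be told from those of its whole list. Of the 7 summits of p53 replicate 2 none had a PPAR-alpha summit within 100 bp. Within 500 bp 3 had one, 1 at Tcf12 and 2 at Id3. The matching shares of the whole replicate 2 list were not computed, so these counts have no background and are not read further. The median score at the 6 genes was 3.99, 2.97 and 4.13 in the 3 lists, beside 3.99, 3.62 and 4.70 over each whole list.

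**Figure D3:**
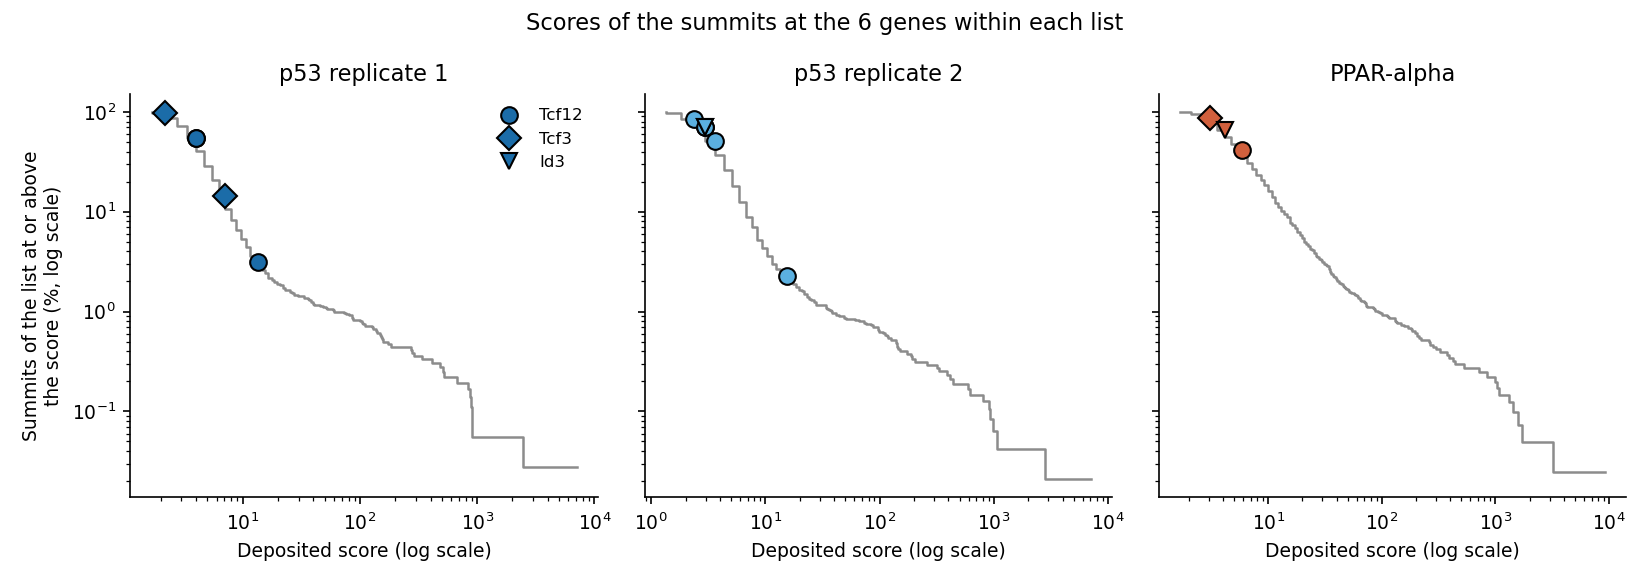
Share of each list's summits at or above a given score (percent, both axes log), as a grey line, with the summits at the 6 genes marked by gene. The p53 summits at the Tcf12 start stand at 3.16% and 2.27% of their lists, and the p53 replicate 1 summit of 7.07 in the Tcf3 window, at Mbd3, stands at 14.4%. The other 12 stand between 41.6% and 96.9%.

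Genes that work with this family were counted from lists chosen with earlier results of these data known, using summits inside or within 5 kb. Beside the shares of all genes given above for this window, 6.05% of all protein-coding genes had a summit in each list and 27.2% in any. Partners, cofactors and regulators of E proteins had summits in 5, 6 and 4 of 15 cases. The 4 in all lists were the LIM-domain binding protein gene Ldb1 (highest scores of 5.45, 3.62 and 3.58 in the 3 lists), the corepressor gene Cbfa2t3 (2.74, 4.33 and 6.55) and the acetyltransferase genes Ep300 (2.74, 1.83 and 3.58) and Kat2b (3.34, 6.72 and 7.20). Crebbp had 5.45 and 2.97 in the p53 replicates alone. Of the 15, 9 had none in any list, among them the leukaemia-linked partners Tal1, Lyl1, Lmo1 and Lmo2 and the fourth inhibitor gene, Id4, which were named after their values were seen.

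Genes that carry the signals known to raise Id genes had summits in 4, 6 and 5 of 13 cases, with Tgfbr2 (3.99, 6.72 and 3.58) and Nfatc3 (6.24, 5.88 and 5.91) in all lists. Smad4 had 6.72 in p53 replicate 2 alone, and Egr2, of a family that links the pre-T cell receptor to Id3, had 6.55 in PPAR-alpha alone. Genes known to be bound or controlled by E proteins in thymocytes had them in 13, 16 and 15 of 24 cases, with 11 in all lists. These 11 were Rag1, Cd4, Cxcr4, Ets1, Dntt, Tox, Bcl11b, Gata3, Tcf7, Lef1 and Ccr9. Within the PPAR-alpha list, the highest score was 23.4 at Lef1, 15.5 at the chemokine receptor gene Cxcr4 and 14.7 at Ccr9. In p53 replicates 1 and 2 it was 3.34 and 6.72 at Lef1, 6.24 and 3.62 at Cxcr4, and 3.34 and 5.08 at Ccr9. These genes were named for their highest score in any list, a pick that favours the list with the most high scores. Of whole lists, 16.0% of PPAR-alpha summits scored 10 or more, beside 5.38% and 4.30% in p53 replicates 1 and 2. That the highest values are those of PPAR-alpha, which had no replicate, is therefore not a result about these genes. Of these 24 genes, 4 also stood among the thymocyte markers, and the other 20 had summits in 11, 12 and 13 cases. These counts were not tested, and nothing in them shows that E proteins or p53 act on these genes.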

How the data were processed

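Per the labels, the samples were thymus of p53 AD/AD mice, with 2 p53 libraries, 1 PPAR-alpha library and 1 input. For each ChIP library the authors deposited a list of summit positions with a score. The authors' score has the form and range of a −log10 p- or q-value in the deposited lists, which no label states. Per the submitters' processing notes, which assign no roles or settings, the tools were MACS2 2.1.2, Bowtie2 2.3.4.2 and Picard 2.9.0. The notes give the human build GRCh38. Neither read numbers nor the control or calling threshold are stated there or in the labels. The positions were therefore checked against mouse GRCm38.p6. Within 1 kb of a RefSeq start (all chromosomes but 18, which has no start in the table used) lay 51.3%, 49.8% and 43.6% of the summits, and 4.04% to 4.73% after moving them by 20 kb.

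Positions are counted from 1. Genes and start sites are those of RefSeq, and exons were not used here. Promoter sequences were found for 4 of the 6 genes, counted by gene identifier. Summits within 100 bp counted as shared. The same rule was applied to all protein-coding genes as background, without a test. Counting was tested on simulated data and used Python 3.11.15, pandas 2.3.3 and NumPy 2.4.6. Alternatives varied the window, the score, the shared distance, dense runs (5 or more summits of a list in 10 kb) and the p53 library. The genes and lists were chosen with earlier results of these data known. Named genes were all 6 members and, from each list of related genes, the 3 with the highest score and those with a summit in all 3 libraries. Tal1, Lyl1, Lmo1, Lmo2 and Id4 were added after their values were seen. The targets with a summit in fewer than 3 libraries are counted and not named, and 1 gene was left out of that list and its counts and is not reported here.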

Additional observations from a re-analysis of the deposited data

How the results depend on the processing

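The counts depended most on the score. At scores of 5 or more the 6 genes kept 2, 1 and 1 summits in p53 replicates 1 and 2 and PPAR-alpha, with 1 replicate 1 summit shared with replicate 2 and 0 with PPAR-alpha. At 10 or more they kept 1, 1 and 0, with 1 and 0 shared, and 0 genes had a summit in all 3 lists. These cuts remove summits by construction, and the Tcf12 start summit stayed in both p53 lists. Within 5 kb of the gene, 0 replicate 1 summits were shared with PPAR-alpha, since the Mbd3 site drops out. Within 25 kb, chosen after seeing the data, 2 were, since the upstream Tcf12 site joins. With 50 bp as the shared distance 1 replicate 1 summit was shared with replicate 2, and with 500 bp 2 were shared with PPAR-alpha. Using 1 p53 library in place of both, 2 genes had a summit in each list used, Tcf12 with Id3 (replicate 2) or with Tcf3 (replicate 1), and 0 to 1 p53 summits were shared with PPAR-alpha. The other 21 recomputed values were within 1.5 times the first, among them all those without dense runs. Since depth is unknown and most scores were low, which library holds a weak summit at Tcf3 or Id3 cannot be read as a difference between antibodies or replicates.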

Other observations

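Beyond the 20 kb limit, the summits nearest to Id3 lay around the same start in all 3 libraries, though no pair of them met within 500 bp. Those nearest to Id2 lay close together in p53 replicate 1 and PPAR-alpha. Around the start of E2f2, the cell cycle gene next to Id3, p53 replicate 1 had a summit at 136172487 (score 3.34), p53 replicate 2 at 136172991 (3.62) and PPAR-alpha at 136171986 (2.57), between 288 bp upstream and 717 bp downstream of that start. In the region around Id2, p53 replicate 1 and PPAR-alpha each had a summit 171.8 and 171.9 kb from Id2, at 25267905 (4.70) and 25267955 (7.20) of chromosome 12, outside any annotated gene. The p53 replicate 2 summit nearest to Id2, at 24708056 (7.58), lay 198 bp upstream of the start of Rrm2, which encodes a ribonucleotide reductase subunit.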
